A study of Mus musculus with 8 samples.

Results

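Tight junction genes of brain vessels were described in the embryonic mouse cortex. The group holds 9 genes, Cldn5, Cldn12, Ocln, F11r, Jam2, Jam3, Tjp1, Tjp3 and Cgn, out of 19938 genes tested. Members were taken by symbol, from probe sets that the platform annotation pairs with exactly 1 gene, and each of the 9 was read by 1 probe set. RNA came from brain cortex at embryonic day 16, on a mixed strain background, and was hybridised to 8 Affymetrix whole-transcript arrays. The 4 control arrays are labelled wild type, without the TetO-VEGF-A164 transgene, and the sources used here do not say whether these embryos carried GFAP-tTA. The other 4 come from GFAP-tTA: TetO-VEGF-A164 bitransgenic embryos, in which a transactivator under the glial GFAP promoter drives the VEGF-A164 transgene. The series text calls the overexpression induced, and the sources used here do not date its onset. Each array is called by its group and its replicate number in the labels.

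Tight junctions seal the cleft between neighbouring endothelial cells and are a main structural part of the blood-brain barrier. Claudins and occludin span the membrane and meet their counterparts on the next cell, junctional adhesion molecules of the immunoglobulin family sit beside them, and zonula occludens proteins and cingulin tie the complex to actin from within. Claudin-5 is the dominant claudin of brain endothelium, and VEGF-A is known as a factor that loosens endothelial junctions. The comparison asks whether the RNA of these components differs between cortex with and without the VEGF-A transgene.

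The deposited values are logarithms, taken here to base 2, and centred on each probe set's own median over the 8 arrays. A value is therefore a position relative to that median, without an absolute level, and levels of different genes cannot be compared. For the same reason the presence of cortical or vascular markers could not be checked, only their variation. Vegfa itself, read by 1 probe set, differed by 0.05 (limma, adjusted p = 0.748), so the arrays are called VEGF-labelled. Control 3, VEGF 2 and VEGF 3 had high Xist, which is 1 of 4 control and 2 of 4 VEGF-labelled arrays. Control 3 and VEGF 3 stood apart in vessel markers, with endothelial list means of -0.15 and -0.19 against 0.00019 to 0.079 on the other 6 arrays. Differences and relations to the endothelial list that rest on these arrays are given with and without them. Relations between members, to other lists and to single genes are given over all 8 arrays only. Thalamic markers were high in VEGF 1 and VEGF 2, at list means of 0.80 and 0.70, where the cortical list was at -0.25 and -0.31. The labels do not say whether the embryos of a group were from separate litters, so a p-value here covers the spread among arrays, which may be technical.

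The upstream sequences of 4 members are shown because, across the 8 arrays, Cldn5, Ocln and F11r went with vessel markers while Cldn12 went the other way. That contrast of sign rested on VEGF 3 and control 3. Without them Pearson's r with the endothelial list was 0.518, 0.853 and 0.239 for Cldn5, Ocln and F11r, and 0.348 for Cldn12. All were then positive, with Cldn12 above F11r. Each sequence is the 250 bases before the annotated start of transcription, 5′ to 3′ on the gene's strand, from RefSeq on GRCm38.p6. Cldn5 lies at chr16:18776597-18776846 on the plus strand and F11r at chr1:171437311-171437560 on the plus strand. Ocln lies at chr13:100552719-100552968 and Cldn12 at chr5:5514977-5515226, both on the minus strand, and for both the start listed farthest upstream was used. Capitals mark matches, on either strand, to 7 motifs: the GC box GGGCGG, the CCAAT box CCAAT, the ETS motif CCGGAAG, the forkhead motif TGTTTAC, the TCF/LEF motif CTTTGAT, the hypoxia response core ACGTG and the TATA box TATAAA.
Cldn5: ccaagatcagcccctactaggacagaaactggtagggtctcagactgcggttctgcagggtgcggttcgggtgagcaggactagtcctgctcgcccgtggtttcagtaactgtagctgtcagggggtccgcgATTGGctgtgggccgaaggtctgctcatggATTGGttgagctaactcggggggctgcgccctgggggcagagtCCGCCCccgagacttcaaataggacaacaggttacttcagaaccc
Ocln: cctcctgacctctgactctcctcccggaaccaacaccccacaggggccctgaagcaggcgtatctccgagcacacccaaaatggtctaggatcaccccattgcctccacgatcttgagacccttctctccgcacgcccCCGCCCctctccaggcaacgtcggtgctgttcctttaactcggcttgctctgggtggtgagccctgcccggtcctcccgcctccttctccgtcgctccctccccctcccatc
F11r: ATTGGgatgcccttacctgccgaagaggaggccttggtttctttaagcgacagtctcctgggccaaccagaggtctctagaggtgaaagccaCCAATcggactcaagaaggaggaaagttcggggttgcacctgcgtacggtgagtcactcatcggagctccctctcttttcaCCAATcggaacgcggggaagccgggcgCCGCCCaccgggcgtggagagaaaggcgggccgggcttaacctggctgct
Cldn12: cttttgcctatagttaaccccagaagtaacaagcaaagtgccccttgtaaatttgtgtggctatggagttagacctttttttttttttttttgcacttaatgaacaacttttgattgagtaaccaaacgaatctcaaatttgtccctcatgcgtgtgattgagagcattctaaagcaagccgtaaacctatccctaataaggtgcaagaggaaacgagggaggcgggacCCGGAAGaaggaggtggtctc

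Cldn5 held 2 CCAAT boxes and 1 GC box, F11r held 3 CCAAT boxes and 1 GC box, and Ocln held 1 GC box. The Cldn12 window shown held 1 ETS motif and none of the other 6. At the other listed starts of Cldn12, each window held 1 GC box, 1 CCAAT box and 1 ETS motif. At the other listed start of Ocln the window held 1 GC box and 1 CCAAT box. Of 32851 windows of the same length in the RefSeq table, 33.8% held a CCAAT box, 32.7% a GC box and 6.91% an ETS motif. Over all 11 windows of the 7 members listed there, some of them overlapping, 8 held a GC box and 7 a CCAAT box. None of the 11 held the forkhead, TCF/LEF or TATA letters, which 3.17%, 3.21% and 12.4% of all windows hold. The hypoxia core stood in 1 window each of Tjp3 and Cgn, where the same palindromic letters match on both strands, against 16.6% of all windows. These are matches of letters, not binding sites.

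None of the 9 tight junction genes passed the test between the groups. Of the 9, 6 were higher and 3 lower in the VEGF-labelled arrays, by differences between -0.24 in Cldn5 and 0.08 in Jam2, or 0.844-fold to 1.06-fold if the base is 2. The median difference was 0.016, beside -0.010 over all genes tested, of which 56.7% were lower. In limma's test 0 of 9 passed an adjusted p of 0.05, as did 0 of 19938 genes (0%). At an unadjusted p under 0.05 there were 0 of 9, against 12.5% of all genes, and the methods' t-test also gave 0 of 9. The groups did not overlap in 0 of 9 genes, against 6.84% of all genes, 2.13% with the VEGF-labelled arrays higher and 4.71% with them lower. Against these background shares a count of 0 among 9 genes is no result about the members. All 9 intervals of 95% included 0, and they bound what these arrays could show, since 8 of the 9 genes varied more within groups than the median gene.

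**Figure D1:**
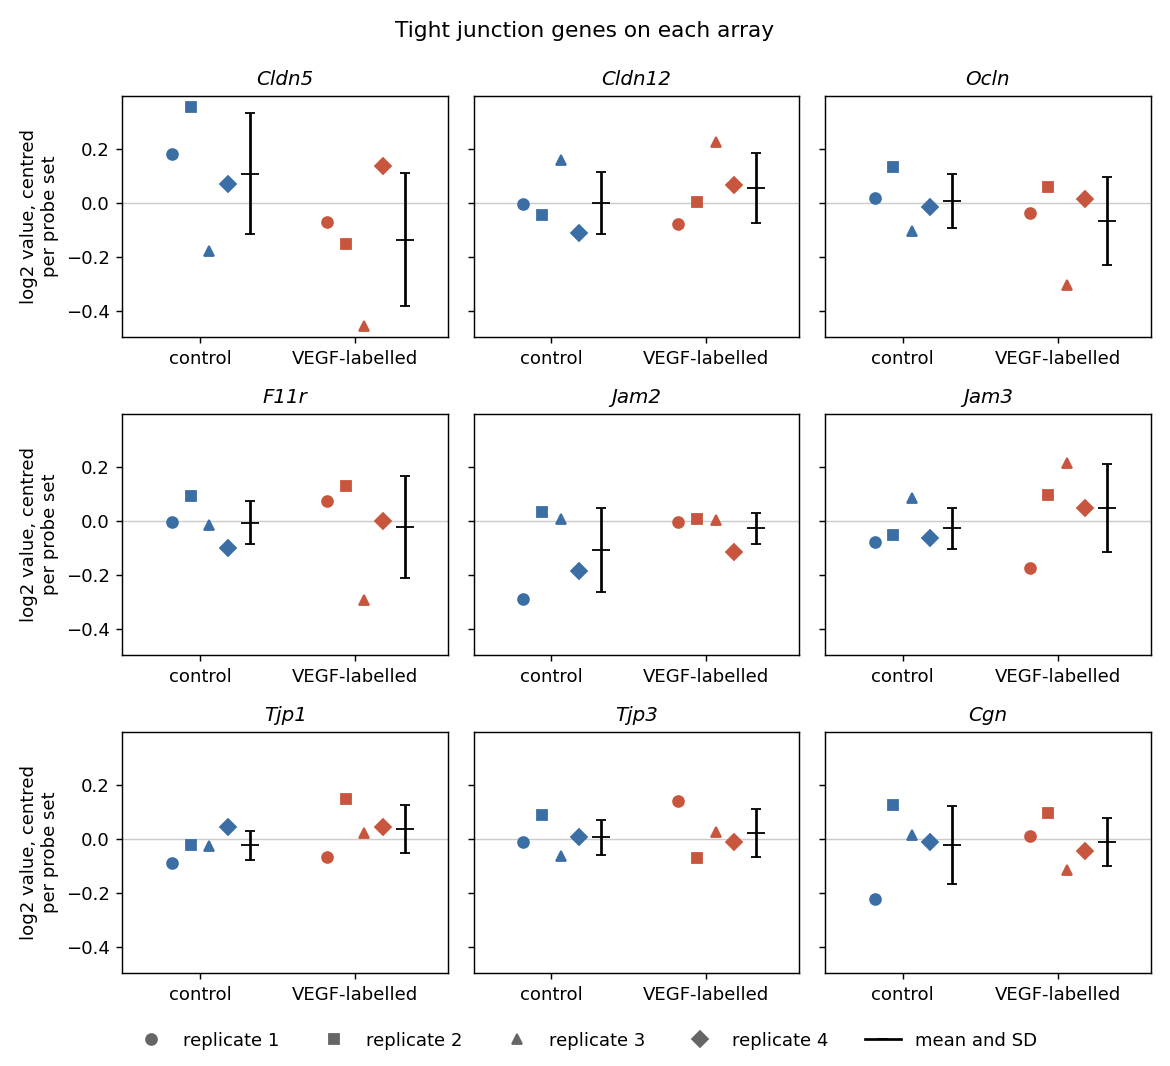
Values of the 9 tight junction genes on each array (vertical axis, log2 centred per probe set), by group, with the marker shape giving the replicate number and the bar the mean and SD of 4 arrays. The groups overlap in all 9 genes, and VEGF 3 is the lowest array for Cldn5, Ocln and F11r and the highest for Cldn12 and Jam3.

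**Figure D2:**
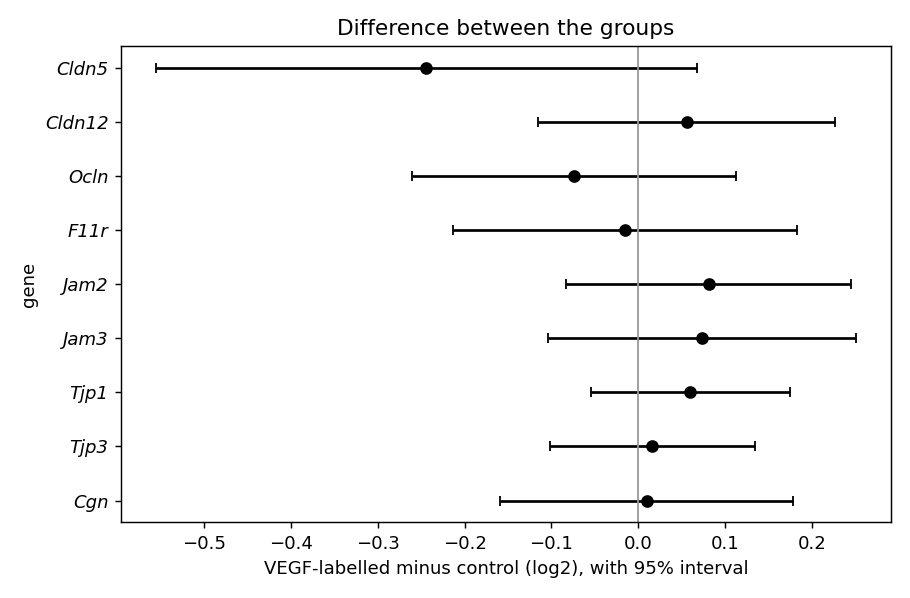
Difference between VEGF-labelled and control arrays (horizontal axis, log2) for each gene, with the 95% interval of limma's moderated fit. Every interval includes 0, and that of Cldn5 is the widest, from -0.56 to 0.07.

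Cldn5, the claudin that seals brain endothelium, had the largest difference of the 9. It was at 0.18, 0.36, -0.18 and 0.07 in control 1 to 4 and at -0.07, -0.15, -0.46 and 0.14 in VEGF 1 to 4. VEGF 3 was the lowest array and control 2 the highest, and the groups overlapped, since control 3 lay below VEGF 1 and VEGF 2 and VEGF 4 lay above control 4. Control averaged 0.11 ± 0.22 and the VEGF-labelled arrays averaged -0.14 ± 0.25 (SD over 4 arrays in both cases). The difference was -0.24 with an SE of 0.138 and a 95% interval from -0.56 to 0.07 (limma, adjusted p = 0.526), and an exact permutation test, two-sided, gave p = 0.229, where 0.0286 is the smallest p it allows. Of all genes, 3.37% differed by more, but the spread of Cldn5 within groups was also wide, at the 97.5th percentile of all genes. Without VEGF 3 the difference was -0.14 (limma, adjusted p = 0.773), without control 2 it was -0.16 (adjusted p = 0.810) and without control 3 it was -0.34 (adjusted p = 0.323). Without both arrays it was -0.23 with an SE of 0.096 (adjusted p = 0.462).

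Cldn12, a claudin found in brain endothelium and in other cells of the brain, had r = -0.668 with Cldn5 over all 8 arrays. Its highest arrays, control 3 and VEGF 3, were the lowest of Cldn5. Its values were -0.0048, -0.04, 0.16 and -0.11 in control 1 to 4 and -0.08, 0.0048, 0.23 and 0.07 in VEGF 1 to 4. Control 3 and VEGF 3 were the highest array of their group, and the groups overlapped. The difference was 0.06 with an SE of 0.076 and an interval from -0.12 to 0.23 (limma, adjusted p = 0.842), and without VEGF 3 it was -0.0015.

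Ocln encodes occludin, the first membrane protein found in tight junctions and a regulator of their tightness. It was at 0.02, 0.14, -0.10 and -0.02 in control 1 to 4 and at -0.04, 0.06, -0.30 and 0.02 in VEGF 1 to 4. VEGF 3 alone lay below all control arrays, and control 3 was the lowest control. The difference was -0.07 with an SE of 0.083 and an interval from -0.26 to 0.11 (limma, adjusted p = 0.794). Without VEGF 3 it was 0.0049, and without both low-vessel arrays it was -0.03.

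The 3 junctional adhesion molecules did not share a pattern. F11r, which encodes JAM-A of endothelial and epithelial junctions, was at -0.0021, 0.09, -0.01 and -0.10 in control 1 to 4 and at 0.07, 0.13, -0.29 and 0.0021 in VEGF 1 to 4. Apart from VEGF 3 every VEGF-labelled array lay above 3 of the 4 controls or more, and only VEGF 3 lay below the control range. The difference was -0.016 with an SE of 0.088 (limma, adjusted p = 0.970). Its sign turned under quantile normalization, to 0.016, and without VEGF 3, to 0.08.

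Jam2 encodes JAM-B, which is found at endothelial contacts. Its values were -0.29, 0.03, 0.0087 and -0.19 in control 1 to 4 and -0.0049, 0.0071, 0.0049 and -0.11 in VEGF 1 to 4. Control 1 and control 4 were the low arrays, and the VEGF-labelled values lay inside the control range. The difference was 0.08 with an SE of 0.073 and an interval from -0.08 to 0.25 (limma, adjusted p = 0.731). It was 0.0063 with the thalamic list mean as a covariate, 0.03 with the erythroid one and 0.08 with the endothelial one. Without control 1 it was 0.021 and without control 2 it was 0.13.

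Jam3 encodes JAM-C, a partner of JAM-B that is also made by neural cells. It was at -0.08, -0.05, 0.09 and -0.06 in control 1 to 4 and at -0.17, 0.10, 0.22 and 0.05 in VEGF 1 to 4. VEGF 1 was below all controls and VEGF 2 and VEGF 3 above all of them. The difference was 0.07 with an SE of 0.078 and an interval from -0.10 to 0.25 (limma, adjusted p = 0.784). It was 0.15 without VEGF 1, 0.11 without control 3 and 0.017 without VEGF 3, with adjusted p of 0.331, 0.637 and 0.961 in limma.

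The genes of the cytoplasmic plaque differed by 0.0096 to 0.06. Tjp1 encodes ZO-1, the scaffold that links claudins and occludin to actin. It was at -0.09, -0.02, -0.03 and 0.04 in control 1 to 4 and at -0.07, 0.15, 0.02 and 0.05 in VEGF 1 to 4. VEGF 2 was the highest array, and VEGF 1 lay among the controls. The difference was 0.06 with an SE of 0.051 and an interval from -0.05 to 0.18 (limma, adjusted p = 0.708). Without VEGF 2 it was 0.023, without control 1 it was 0.04, and without VEGF 1 it was 0.09.

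Tjp3, encoding ZO-3, a scaffold best known from epithelia, varied between -0.06 and 0.09 in control and between -0.07 and 0.14 in the VEGF-labelled arrays. VEGF 1 was its highest array and VEGF 2 its lowest. The difference was 0.016 with an SE of 0.052 (limma, adjusted p = 0.943), and it was -0.07 once the mean of the erythroid list entered as a covariate. Cgn encodes cingulin, which binds ZO-1 and actomyosin. It was at -0.22, 0.13, 0.017 and -0.010 in control 1 to 4 and at 0.010, 0.10, -0.11 and -0.04 in VEGF 1 to 4. The VEGF-labelled values lay within the range of the controls, and the difference was 0.0096 with an SE of 0.075 (limma, adjusted p = 0.977).

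The members ran differently from one another across the arrays. Over the 36 pairs of members the median Pearson's r across the 8 arrays was 0.073, and 4 pairs were above 0.7. These were Ocln with F11r (r = 0.864), Cldn12 with Jam3 (r = 0.862), Cldn5 with Ocln (r = 0.856) and Jam2 with Cgn (r = 0.721). With the group means removed the 4 values were 0.889, 0.851, 0.857 and 0.759. Over all 8 arrays Cldn12 went against Ocln (r = -0.733) and Cldn5 (r = -0.668). Control 3 and VEGF 3 were the highest arrays for Cldn12 and the lowest for Ocln and Cldn5. Whether the pairs keep these relations without control 3 and VEGF 3 was not tested. Points in these relations share the array, its tissue piece and its normalization, and n is 8 arrays throughout, so they are descriptions. Tjp3 had the lowest r to its nearest member, 0.244 with Cldn5, but went against Jam3 (r = -0.586) and Tjp1 (r = -0.504). The members of highest r for Tjp1 and Cgn were Jam3 (r = 0.534) and Jam2.

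Cldn5, Ocln and F11r went with the markers of endothelium over the 8 arrays, though not with these alone. The mean of 20 endothelial genes, none of them a member, went with Ocln at r = 0.921, with Cldn5 at r = 0.820 and with F11r at r = 0.714 (n = 8 arrays). Spearman's rho was 0.881, 0.762 and 0.667. Over all genes, 5.36% had an r above 0.7 with this list. Without VEGF 3 and control 3, the arrays farthest from its median, r was 0.853 for Ocln, 0.518 for Cldn5 and 0.239 for F11r (n = 6 arrays). The relations of F11r and, less so, of Cldn5 were weaker without these 2 arrays. Cldn12 and Jam3 went the other way at r = -0.821 and -0.610, but without the 2 arrays r was 0.348 and 0.619. Over the 8 arrays Tjp1 (r = 0.161), Tjp3 (0.187), Cgn (0.330) and Jam2 (-0.287) had weak relations. Without the 2 arrays their r was 0.451, -0.205, 0.573 and 0.407, in the same order. Cgn then lay above Cldn5, and Tjp1 and Jam2 lay above F11r. In whole tissue, fewer vessel cells and less RNA per cell cannot be told apart.

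**Figure D3:**
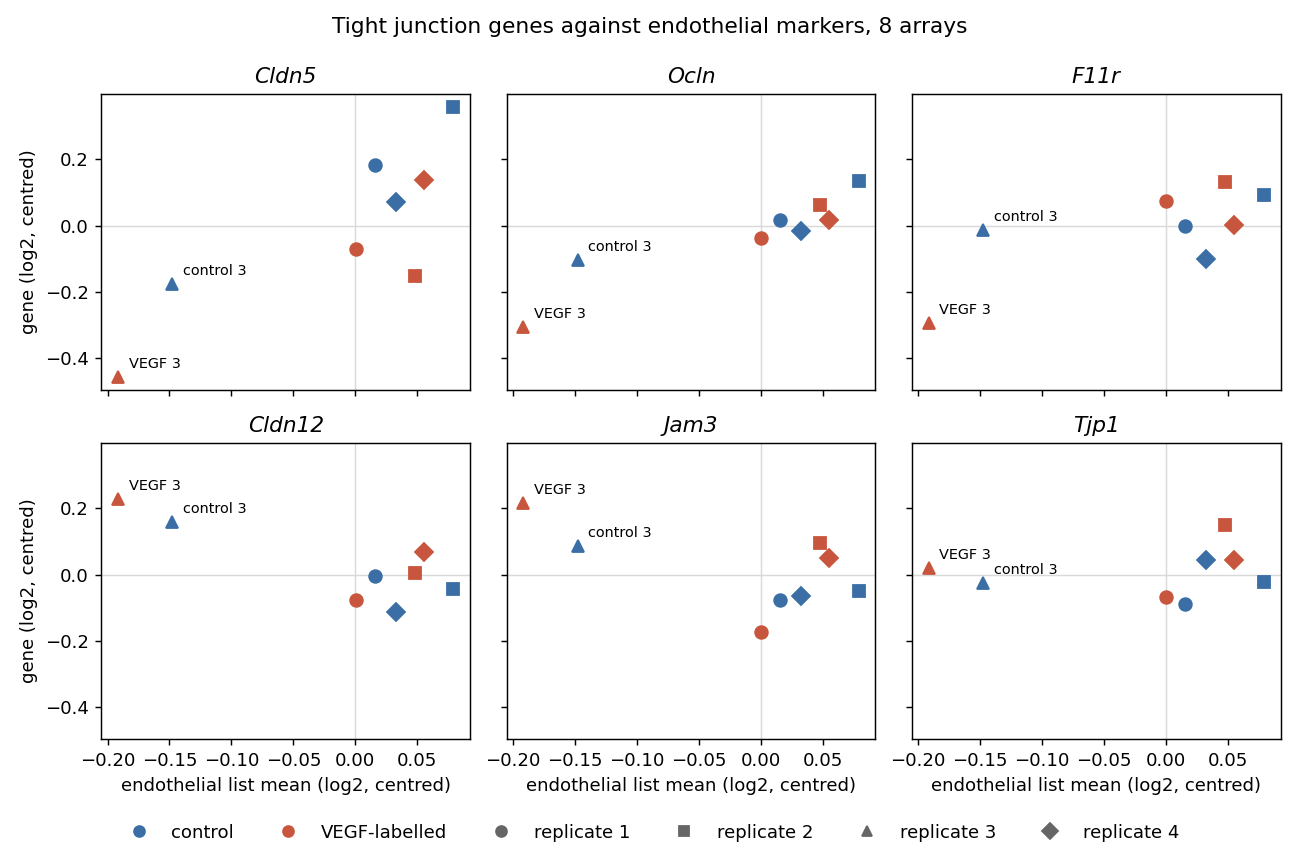
Each point is 1 array, with the mean of the endothelial list on the horizontal axis and the gene on the vertical axis (both log2, centred per probe set). Control 3 and VEGF 3 lie apart on the left, low in Cldn5 and Ocln and high in Cldn12, while the remaining 6 arrays lie between 0.00019 and 0.079.

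Control 3 and VEGF 3 were also low in other markers of vessels and their surroundings. The pericyte list mean was -0.13 and -0.23 there, against -0.0040 to 0.085 on the other 6 arrays. The meningeal list mean was -0.24 and -0.45, against -0.04 to 0.15. Ocln went with the pericyte list at r = 0.944 and with the meningeal list at r = 0.952 (n = 8 arrays), so the lists moved together on these arrays. Ocln too was lowest on control 3 and VEGF 3, and its relation to these lists without them was not tested. The part of each cell type in the values of Cldn5, Ocln and F11r was not tested.

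The endothelial list overlapped between the groups. Control arrays averaged -0.0052 ± 0.099 for it and VEGF-labelled arrays averaged -0.022 ± 0.12 (SD over 4 arrays in both cases). Of its 20 genes 7 were higher and 13 lower, the median difference was -0.013, and 0 passed the limma test, adjusted or at an unadjusted p under 0.05. Pecam1, an adhesion molecule of endothelial cells, differed by 0.015, the VEGF receptors Kdr and Flt1 by -0.016 and 0.020, and the endothelial cadherin Cdh5 by -0.06. Set against this list, Cldn5 was at 0.17, 0.28, -0.029 and 0.04 in control 1 to 4 and at -0.07, -0.20, -0.26 and 0.08 in VEGF 1 to 4. On this relative scale VEGF 1 to 3 lay below all controls, while VEGF 4 lay among them. With the endothelial list mean as a covariate the difference of Cldn5 was -0.21 with an SE of 0.067 (limma, adjusted p = 0.234), and that of Ocln was -0.05 with an SE of 0.041 (adjusted p = 0.657). The SE of Cldn5 without the covariate was 0.138.

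**Figure D4:**
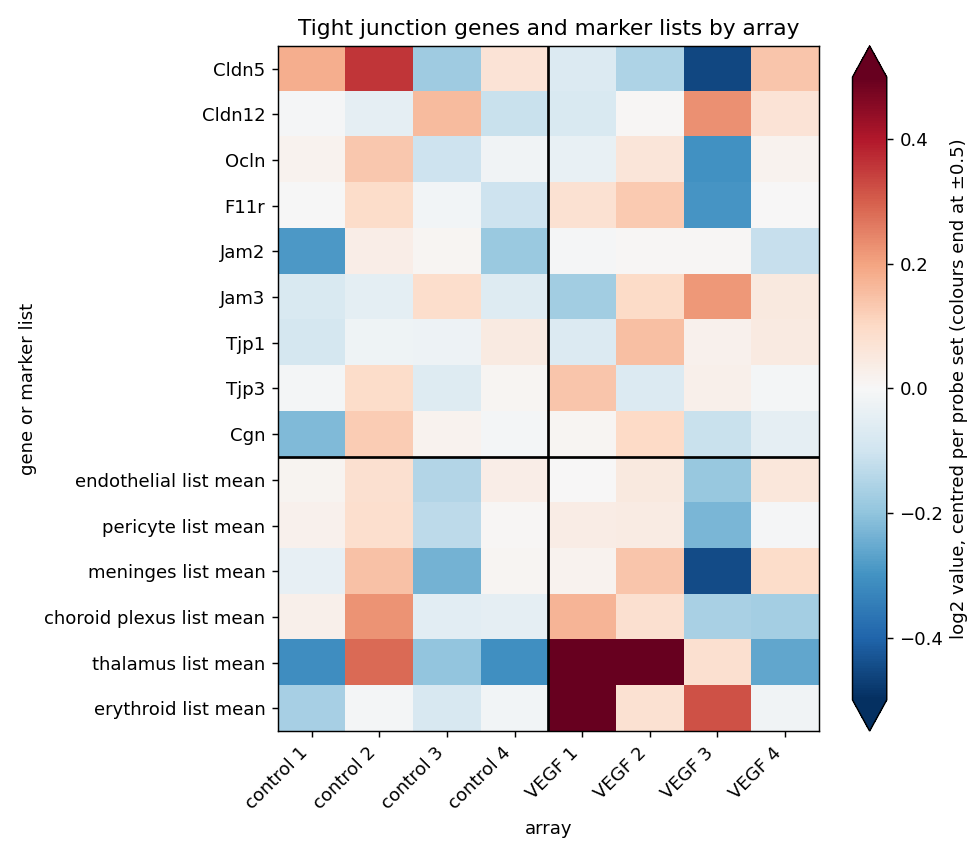
Values of the 9 tight junction genes and the means of 6 marker lists (rows) on the 8 arrays (columns), as colours of the centred log2 value that end at ±0.5. The columns of control 3 and VEGF 3 are low in the endothelial, pericyte and meningeal lists, and the thalamic list is high in VEGF 1 and VEGF 2.

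The genes whose values ran closest to Cldn5 were Vtn, a vitronectin gene counted here among the pericyte markers, at r = 0.993, the phosphatase subunit gene Ppp2r5b at 0.986 and the actin-severing gelsolin Gsn at 0.977. They lead a ranking of 18185 named genes by Pearson's r over the 8 arrays, given as a description. The ranking was not repeated without control 3 and VEGF 3. Vtn was at -0.25 in control 3 and -0.71 in VEGF 3, and differed by -0.38 with an SE of 0.192 (limma, adjusted p = 0.471). The mean of the 9 members ran closest to Araf (r = 0.983), Tril (0.939) and Zc3h12b (0.936). That mean stayed between -0.07 and 0.08, with members that ran in opposite directions.

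Other tight junction genes showed a few differences at the unadjusted level only. Of 37 listed genes 35 were measured, 12 higher and 23 lower, with a median of -0.011 against -0.010 over all genes. In limma 0 passed the adjusted threshold, and at an unadjusted p under 0.05 there were 2 higher and 2 lower, against 4.62% and 7.84% of all genes. Ybx3, a Y-box protein that binds ZO-1, was between -0.12 and -0.04 in control and between 0.04 and 0.17 in the VEGF-labelled arrays. The groups did not overlap, and the difference was 0.21 with an SE of 0.040 (limma, adjusted p = 0.243). Prkci, a polarity kinase of junction assembly, differed by 0.10 (adjusted p = 0.333), also without overlap. Marveld3 was lower without overlap, by -0.09 (limma, adjusted p = 0.372). Of the 35 genes, 2 were thus higher and 1 lower without overlap, against 2.13% and 4.71% of all genes.

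Cldn3, a claudin of barrier epithelia, was at 0.21, 0.26, -0.03 and 0.16 in control 1 to 4 and at -0.0061, -0.24, -0.0043 and 0.0043 in VEGF 1 to 4. Control 3 lay among the VEGF-labelled arrays, and the difference was -0.21 with an SE of 0.076 (limma, adjusted p = 0.329). All 13 claudins on the list of other tight junction genes were lower, from -0.21 in Cldn3 to -0.0027, with a median of -0.03. Claudins outside that list were not counted. This count was taken after the values were seen, and it turned on 1 array and on scaling: without control 2 it was 7 of 13, with array weights 7 of 13, and after quantile normalization or centring of arrays 11 of 13. The endothelial adhesion gene Esam differed by -0.00096, with a sign that turned to 0.06 under quantile normalization, and Cgnl1, which encodes paracingulin, by 0.06, or 0.03 without control 3 and 0.04 without VEGF 1.

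In the adherens junctions that lie beside tight junctions, 8 of 12 genes were higher and 4 lower, with a median of 0.0063 and 0 past the adjusted threshold in limma, and 2 higher and 0 lower at an unadjusted p under 0.05, against 4.62% and 7.84% of all genes. Ctnna1, the catenin that couples cadherins to actin, was between -0.14 and -0.015 in control and between 0.015 and 0.20 in the VEGF-labelled arrays. These ranges did not overlap, the only such case among the 12 genes, against 6.84% of all genes. The difference of Ctnna1 was 0.19 with an SE of 0.052 (limma, adjusted p = 0.243). Nectin3, an adhesion receptor also made by neurons, differed by 0.25 (adjusted p = 0.345) and Nectin2 by -0.07 (adjusted p = 0.561), or -0.04 without control 4.

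Among 19 genes of barrier signalling, 14 were lower and 5 higher, with a median of -0.03. In limma 0 passed the adjusted threshold, and at an unadjusted p under 0.05 there were 3 lower and 1 higher, against 7.84% and 4.62% of all genes. Wnt7a, a ligand from neural progenitors that induces barrier properties in brain endothelium, was at 0.26, 0.04, 0.13 and 0.18 in control 1 to 4 and at -0.43, -0.27, -0.12 and -0.04 in VEGF 1 to 4. All VEGF-labelled arrays lay below all controls, the only lack of overlap among the 19 genes, against 6.84% of all genes. The difference of Wnt7a was -0.37 with an SE of 0.084 (limma, adjusted p = 0.243). The lowest arrays, VEGF 1 and VEGF 2, were those with high thalamic and low cortical lists. With the thalamic list mean as a covariate the difference was -0.22 with an SE of 0.050 (limma, adjusted p = 0.382).

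Mfsd2a, the lipid transporter of brain endothelium that limits transcytosis, was at 0.10, 0.20, -0.02 and 0.12 in control 1 to 4 and at -0.17, -0.13, -0.10 and 0.02 in VEGF 1 to 4. VEGF 4 overlapped with control 3, and the difference was -0.20 with an SE of 0.058 (limma, adjusted p = 0.261). Lef1, a transcription factor of Wnt signalling that is also on the thalamic list, differed by 0.36 (adjusted p = 0.262). With the thalamic list mean as a covariate Lef1 differed by 0.17, but Lef1 is part of that mean, so some of this fall is built in. Plvap, a marker of leaky vessels that mature brain endothelium loses, differed by 0.07 (adjusted p = 0.640), or 0.026 without control 1.

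Markers of other tissues gave 0 genes past the adjusted threshold in limma. The erythroid list was higher in 9 of 9 measured genes, with means of 0.72 in VEGF 1 and 0.32 in VEGF 3 and from -0.17 to 0.08 on the other arrays, and Alas2, the first enzyme of red-cell heme synthesis, differed by 0.83 (adjusted p = 0.293), or 0.54 without VEGF 1. The thalamic list was higher in 8 of 8. The choroid plexus list, an epithelium with tight junctions of its own, was lower in 10 of 11 genes with a median of -0.09, and its water channel gene Aqp1 differed by -0.17 (adjusted p = 0.542), or -0.08 without control 2. The pericyte list had 6 genes higher and 6 lower, with Notch3, a receptor of mural cells, at 0.10 (adjusted p = 0.436). The meningeal list had 6 higher and 5 lower, with the transporter gene Slc6a13 at -0.49 (adjusted p = 0.375), or -0.30 without VEGF 3. The microglia list had 7 higher and 4 lower of 11. Their part in the values of the tight junction genes was not tested beyond the covariate values given.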

How the data were processed

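Cortical RNA of embryonic day 16 (Qiagen RNeasy) was used at 120 ng per array, amplified with the Ambion WT Expression kit and biotin-labelled, per the labels' protocols. Affymetrix Expression Console and the build mm8 are named in the submitters' processing notes, and GeneSpring in the series text. How background was corrected and probes were summarised is not given in the sources used. The authors deposited values read here as log2, 28853 probe sets on 8 arrays, each centred within 5e-07 of a median of 0. Array medians lay between -0.0091 and 0.015.

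Probe sets with 1 gene symbol (21789) were named through the platform annotation, updated through RefSeq's GRCm38.p6 table (21698 matched), and averaged per gene. Groups were compared with limma 3.58.1 in R 4.3.3 (eBayes, two-sided, Benjamini-Hochberg over 19938 genes, threshold 0.05), SE and intervals being those of the moderated fit, and the fit was tested on simulated data. Members and gene lists were chosen with earlier results of these data known. From the pathway lists the 3 genes of smallest p were named, with Cdh5, Esam, Cgnl1, Plvap, Mfsd2a, Pecam1, Kdr and Flt1 whatever their values, and 1 gene from the pericyte, choroid plexus, meningeal, erythroid and thalamic lists. The alternatives were a replicate block, other scalings, priors and weights, the methods' t-test, single probe sets, 3 covariates and leaving out arrays. Marveld3 was named for its lack of overlap. Lists may share genes.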

Additional observations from a re-analysis of the deposited data

Results flagged for a closer look

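Single arrays stood far from the rest of their group in 2 of 18 sets of 4 arrays, taking the 9 tight junction genes in both groups. Jam2 was at -0.11 in VEGF 4, while the other VEGF-labelled arrays lay between -0.0049 and 0.0071. Jam3 was at 0.087 in control 3, while the other controls lay between -0.08 and -0.05. Chance marks about 1 in 20 such sets.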

How the results depend on the processing

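Of 19 alternatives, none gave an adjusted p under 0.05 in limma or the t-test for any of the 9 tight junction genes. Cldn5, Tjp1, Jam2 and Jam3 kept their sign in all of them, Cldn5 between -0.34 and -0.14 with adjusted p from 0.234 to 0.810. The replicate block, the trended prior, the t-test and single probe sets cannot change the differences of these genes. Only the other alternatives could turn a sign. Leaving out 1 array at a time gave 0.023 to 0.095 for Tjp1, 0.021 to 0.13 for Jam2 and 0.017 to 0.15 for Jam3. The median over the 9 genes lay between -0.021 and 0.05. Without VEGF 4, 10 genes passed over all genes against 0 otherwise, none of them a tight junction gene of the 9. Leaving out both low-vessel arrays was chosen after seeing the data. Precision is limited by the number of arrays, and signal over background is unknown.

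Signs turned as follows, none past the threshold. Under quantile normalization F11r was 0.016, Esam 0.057 and Kdr 0.029. With arrays centred on their medians Esam was 0.0041. With array weights F11r was 0.018, Esam 0.060, Pecam1 -0.017 and Flt1 -0.0097. With the endothelial covariate F11r was 0.00069, Esam 0.017 and Kdr 0.011, where Esam and Kdr are themselves part of that list mean. With the erythroid covariate Tjp3 was -0.071, Cgn -0.012, Cdh5 0.0013, Esam 0.071, Pecam1 -0.0067 and Kdr 0.034. With the thalamic covariate Tjp3 was -0.021, Cgn -0.077, Esam 0.00036 and Pecam1 -0.055. Without both low-vessel arrays Tjp3 was -0.0085, F11r 0.073, Esam 0.014 and Kdr 0.0054. Leaving out 1 array at a time gave ranges of -0.0015 to 0.11 for Cldn12, -0.12 to 0.0049 for Ocln, -0.023 to 0.046 for Tjp3, -0.066 to 0.075 for F11r, -0.057 to 0.059 for Cgn, -0.12 to 0.018 for Cdh5, -0.056 to 0.059 for Esam, -0.032 to 0.062 for Pecam1, -0.089 to 0.078 for Kdr and -0.0062 to 0.047 for Flt1. The cause was not tested.

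With the replicate number as a block 0 genes passed, and Cldn5 was -0.24 with an SE of 0.088 (limma, adjusted p = 0.312). Arrays of the same number correlated in their deviations from group means at r = 0.052, -0.130, 0.454 and 0.301 for replicates 1 to 4. For replicates 3 and 4 the array of the same number was the best match in the other group, and for 1 and 2 it was not. Whether the numbers pair the samples therefore stays unknown.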
